A study of Mus musculus with 7 samples.

Results

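The 38 genes described here mark the oligodendrocyte lineage, of 55416 genes in the deposited table. All 38 were found there as protein-coding genes by their symbols, and all 38 passed the filter on low counts, as did 17254 genes in total. They were divided by the stage at which they are best known, with 29 mature myelin genes, 3 lineage regulators (Olig1, Olig2 and Sox10) and 6 genes of precursors and newly forming oligodendrocytes (Pdgfra, Cspg4, Gpr17, Enpp6, Bcas1 and Nkx2-2). RNA from the prefrontal cortex (PFC) of female C57BL/6 wild-type mice was sequenced in 7 libraries. Into the PFC of every animal an adeno-associated virus (AAV) with an EGFP reporter under the neuronal human synapsin promoter had been injected. The virus carried no insert in the 3 Ctr libraries. It carried human PAXIP1-AS1, a long noncoding RNA, with the reference C allele of rs112651172 in the 2 Ref libraries and with the alternative G allele in the 2 Alt libraries. That promoter is active in neurons, so the insert was not directed at oligodendrocytes. Neither the age of the mice at dissection nor the number of animals behind a library was given in the sources used here, so the spread between libraries may be partly technical.

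The list was chosen by values measured in these same libraries. It was selected on Alt versus Ref, where Mbp was the 1 gene past an FDR of 0.05, and on the levels of oligodendrocyte markers in Ref versus Ctr. Every comparison of the 38 genes below is therefore a description with no test, and each value stands beside the spread between libraries. The same 3 Ctr libraries serve both alleles, and the same Ref libraries serve 2 of the 3 comparisons, so that the comparisons are not independent of each other.

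Oligodendrocytes wrap axons of the central nervous system in myelin, a stack of lipid-rich membrane held together by proteins such as myelin basic protein. They arise from precursor cells that carry the PDGF receptor alpha and the proteoglycan NG2, persist in the adult cortex and continue to divide and mature there. On the way to a myelinating cell the transcription factors Olig1, Olig2 and Sox10 remain on, Nkx2-2 and Gpr17 mark a passing stage, and Myrf switches on the myelin genes.

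Levels are given as CPM, the counts scaled to a common library total after TMM normalization, and differences as log2 fold changes with their standard error (SE) from one edgeR model over the 7 libraries. Total counts lay between 16655697 and 20750857 per library, and a gene of the list had between 24 and 27545 counts in a library. The median of all tested genes moved by at most 0.0421 (log2) between any library and the Ctr mean. Alt replicate 1 had the smallest total and the lowest TMM factor, 0.924. The small number of libraries, more than counting error, limits the precision of most values. The defining oligodendrocyte markers Mbp, Mog, Mag, Mobp and Cnp were well detected in every library, with a summed level of 1017 to 2416 CPM. The Schwann cell list had a summed level of 10.2 to 28.4 CPM, most of it from Egr2, which neurons also express, while Prx had 8 to 36 counts and Pmp2 had 0 in all 7 libraries. The list for choroid plexus and ependyma summed to 4.38 to 7.62 CPM, where Kl had 37 to 98 counts, Rarres2 at most 57, Foxj1 at most 35 and Ttr at most 4.

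Each of the 38 genes had a higher mean in Ref than in Ctr. Their median log2 fold change was 0.52, against 0.0055 over all genes tested. In 22 of them both Ref libraries lay above the 3 Ctr libraries. In Alt, 36 of the 38 were lower than in Ref, with a median of -0.66 against -0.0373 over all genes tested, and in 25 both Alt libraries lay below both Ref libraries. The 2 exceptions were Pdgfra and Cspg4, the precursor genes that encode the PDGF receptor alpha and NG2. Pdgfra was no longer higher in Alt than in Ref without Alt replicate 1 (-0.0042). They are also the 2 longest genes of the list, with 10024 and 11931 bases against a median of 3637. With a correction for gene length, 5 of the precursor and newly forming genes were lower in Alt than in Ref and 1 was higher. The part of gene length in these values was not tested. Alt and Ctr were closer to each other, with 16 genes higher and 22 lower in Alt and a median of -0.08.

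At an unadjusted p of 0.05, the edgeR model called 20 of the 38 higher in Ref than in Ctr, beside 2.19% of all genes tested, and 0 of the 38 lower, beside 0.945%. In Alt versus Ref, 20 were called lower, beside 8.83% of all genes, and 0 higher, beside 6.71%. The 1 gene past an FDR of 0.05 there was Mbp, which is 0.0058% of the genes tested. Groups that did not overlap were found in Ref versus Ctr, higher, for 12.4% of all genes, and in Alt versus Ref, lower, for 26.1%. Since both comparisons chose the list, nothing is read from these counts. In Alt versus Ctr, 3 genes were called higher (Myrf, Pdgfra and Cspg4), beside 9.45%, and 5 were called lower (Mbp, Mag, Hapln2, Qdpr and Car2), beside 10.3%. The first number is 7.89% and the second 13.2% of the list, both close to the background. Without Ref replicate 2 the count for Ref versus Ctr was 10 in place of 20, while the share of all genes called in either direction went from 3.14% to 1.25%. Without Alt replicate 1 the count for Alt versus Ctr was 4 in place of 8 (Mbp, Qdpr and Pllp lower, Cspg4 higher), and the share of all genes went from 19.8% to 8.14%. With a correction for gene length, 13 genes were called in Alt versus Ref, beside 13.0% of all genes, and 2 in Alt versus Ctr, beside 16.4%.

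In 6 genes every Alt library lay below every Ctr library and every Ctr library below every Ref library, an order without overlap that 1.18% of all genes tested share. These were Mbp, Mag, Opalin, Hapln2, Car2 and Sox10. The order contains both comparisons that chose the list, so nothing is read from this count. No gene of the list lay in the order of Ctr below Ref below Alt except Cspg4.

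**Figure D1:**
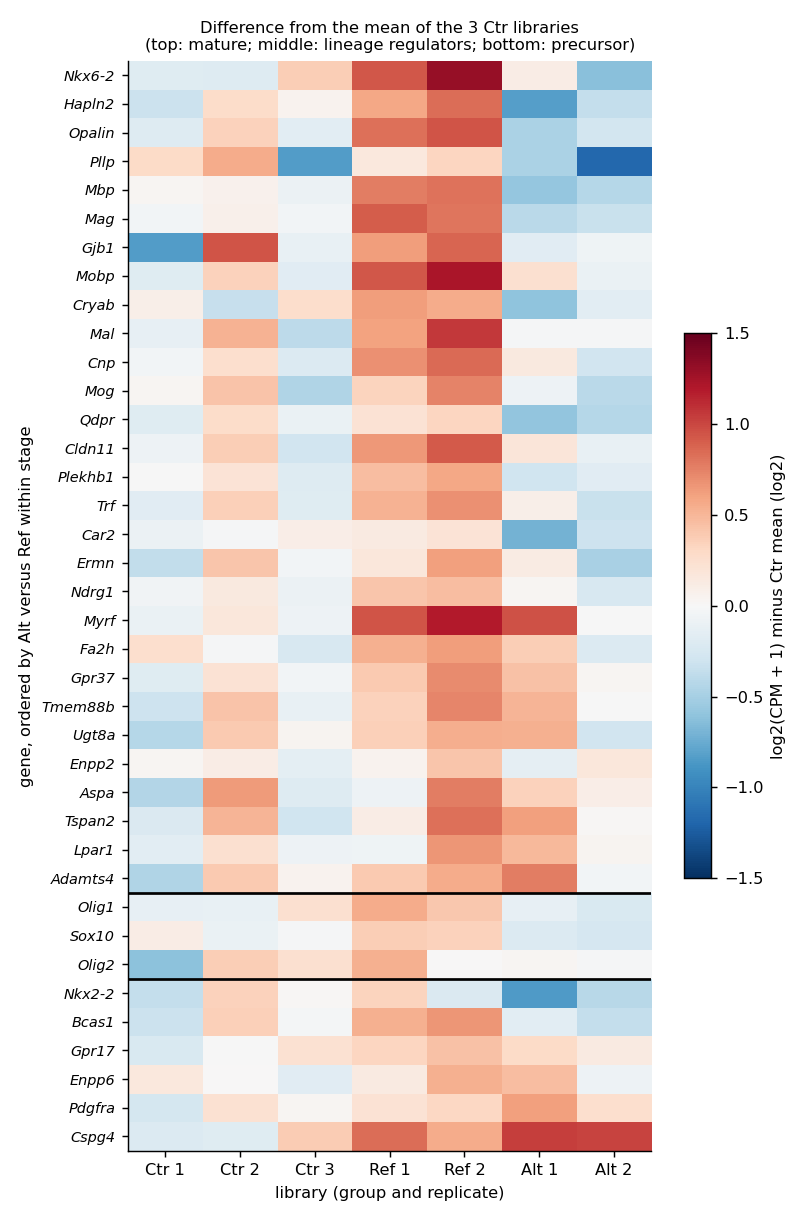
Each row is 1 of the 38 genes and each column 1 library, and the colour gives log2(CPM + 1) minus the mean of the 3 Ctr libraries, red for higher and blue for lower. The 2 Ref columns are red for nearly all genes, the Alt columns are mixed, and Cspg4 and Pdgfra in the bottom block are red in both Alt libraries.

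Levels of the genes of the list were compared as deposited TPM values, which scale counts for gene length and then to a common total. They spanned a wide range. In Ctr, Mbp was highest with 318 ± 6.79 TPM (SD, n = 3). Plekhb1 followed with 205 ± 22.6 TPM, Olig1 with 203 ± 38.4 TPM and Car2 with 193 ± 19.8 TPM, and these 3 did not differ beyond their spread. Enpp6 and Nkx2-2 were lowest, with 3.84 ± 0.394 TPM and 4.40 ± 1.31 TPM. Over all 7 libraries, 12 genes had a mean of 100 TPM or more. In Ref the TPM of Mbp was 531 ± 38.8 (SD, n = 2), and in Alt it was 215 ± 0.0248 (SD, n = 2).

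Among the proteins of the myelin membrane, Mbp encodes myelin basic protein, which binds the inner faces of the membrane together. Its table coordinates are chromosome 18, 82493271 to 82603762, plus strand. It had 802, 820 and 736 CPM in Ctr replicates 1, 2 and 3, 1332 and 1381 CPM in Ref replicates 1 and 2, and 523 and 584 CPM in Alt replicates 1 and 2. The 3 groups were far apart compared with the spread inside each, and Alt was the lowest. The log2 fold change from Ctr was 0.79 ± 0.14 (SE) in Ref and -0.51 ± 0.14 in Alt, and it was -1.29 ± 0.16 between Alt and Ref.

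Mag, a myelin-associated glycoprotein that faces the axon, had the same order. Its levels were 49.6, 53.9 and 49.4 CPM in Ctr, 96.8 and 89.9 CPM in Ref and 38.2 and 40.2 CPM in Alt. The log2 fold change was 0.87 ± 0.15 for Ref versus Ctr and -0.38 ± 0.15 for Alt versus Ctr.

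Mobp, a small basic protein of compact myelin, had 245, 354 and 248 CPM in Ctr, 530 and 649 CPM in Ref and 329 and 260 CPM in Alt. Its 2 Ref libraries stood above the other 5, while Alt and Ctr overlapped, with a log2 fold change of 1.06 ± 0.19 for Ref versus Ctr and of 0.06 ± 0.20 for Alt versus Ctr. Mal, a proteolipid of membrane sorting, showed a similar arrangement with 109, 171 and 90.3 CPM in Ctr, 181 and 249 CPM in Ref and 118 CPM in each Alt library. The highest Ctr library of Mal, replicate 2, came within 10.1 CPM of the lower Ref library.

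Opalin, a sialylated transmembrane protein restricted to oligodendrocytes, had 6.50, 9.84 and 6.69 CPM in Ctr, 14.1 and 15.5 CPM in Ref and 5.14 and 6.08 CPM in Alt. Its log2 fold change of Alt versus Ref, -1.40 ± 0.31, was among the 4 largest of the mature genes. Pllp, a tetraspan protein of myelin, also belonged to those 4 with -1.34 ± 0.59, but its 5.46, 6.74 and 1.95 CPM in Ctr spanned its 4.89 and 5.58 CPM in Ref and its 2.80 CPM in Alt replicate 1. Alt replicate 2 was lower, with 1.34 CPM.

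Tspan2, a tetraspanin, was among the 4 mature genes with the smallest difference between the alleles. It had 100.2, 167 and 94.6 CPM in Ctr, 126 and 208 CPM in Ref and 179 and 118 CPM in Alt, so that the groups overlapped in every comparison. The other myelin membrane genes were Mog, Cnp, Cldn11, Ermn, Gjb1 and Tmem88b, with log2 fold changes of Alt versus Ref between -1.02 ± 0.56 for Gjb1 and -0.28 ± 0.26 for Tmem88b. For Ref versus Ctr they lay between 0.38 ± 0.25 for Ermn and 0.77 for Cnp and Cldn11. Over the 13 genes of this role the medians were 0.765 (Ref versus Ctr), -0.864 (Alt versus Ref) and -0.193 (Alt versus Ctr).

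**Figure D2:**
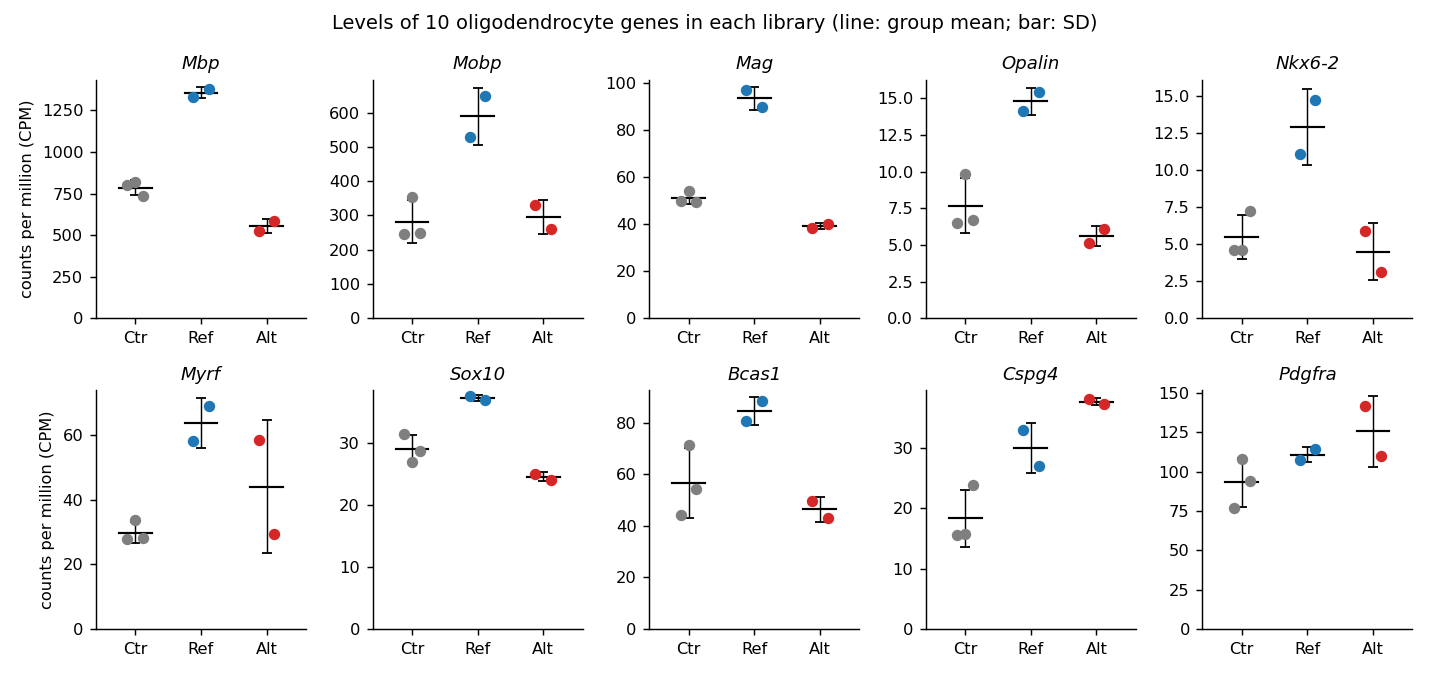
Points are the CPM of single libraries on axes that start at 0, lines are group means and bars are the SD of 3 Ctr, 2 Ref and 2 Alt libraries. The Ref points of Mbp, Mobp, Mag and Opalin lie above all others, the Alt points of Myrf are far apart at 58.6 and 29.5 CPM, and the Alt points of Cspg4 lie above all others.

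The 6 enzymes had smaller differences, with medians of 0.303 for Ref versus Ctr and -0.383 for Alt versus Ref. Car2, a carbonic anhydrase abundant in oligodendrocytes, had 128, 135 and 146 CPM in Ctr, 149 and 157 CPM in Ref and 82.9 and 110 CPM in Alt. Unlike Mobp, Car2 differed more between Alt and Ctr, with -0.50 ± 0.16, than between Ref and Ctr, with 0.16 ± 0.16. Qdpr, which recycles the cofactor tetrahydrobiopterin, followed the same pattern with -0.53 ± 0.18 and 0.26 ± 0.17. The difference of Car2 between Alt and Ctr was -0.311 without Alt replicate 1.

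Aspa, which splits N-acetylaspartate to supply acetate for lipids, had 10.4, 23.1 and 12.5 CPM in Ctr, 13.7 and 25.4 CPM in Ref and 18.7 and 15.7 CPM in Alt. Its groups overlapped throughout, and its log2 fold change of Alt versus Ref was -0.19 ± 0.38. The enzymes of the myelin galactolipids were Ugt8a, the galactosyltransferase, and Fa2h, the fatty acid 2-hydroxylase. They were higher in Ref than in Ctr by 0.42 ± 0.26 and 0.59 ± 0.23, and differed between Alt and Ctr by 0.15 ± 0.27 and 0.10 ± 0.23. For Enpp2, which makes lysophosphatidic acid, the 3 log2 fold changes lay between -0.22 ± 0.19 and 0.24 ± 0.17.

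Of the 8 other mature genes, Plekhb1, a pleckstrin-domain protein, had 219, 255 and 193 CPM in Ctr, 305 and 330 CPM in Ref and 180 and 197 CPM in Alt. Trf, the iron carrier transferrin, had 159, 229 and 157 CPM in Ctr, 257 and 288 CPM in Ref and 191 and 142 CPM in Alt. In both genes the Ref libraries were above all others and Alt overlapped Ctr. Hapln2, a link protein of the matrix at nodes of Ranvier, had 6.30, 10.1 and 8.45 CPM in Ctr, 12.7 and 15.4 CPM in Ref and 4.16 and 6.13 CPM in Alt. Here Alt lay below Ctr, by -0.68 ± 0.30, and below Ref, by -1.45 ± 0.33, but without Alt replicate 1 the first of these was -0.43.

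Lpar1, a receptor for lysophosphatidic acid, and Adamts4, a protease that cleaves proteoglycans, had nearly equal means in Alt and Ref, with log2 fold changes of -0.06 ± 0.26 and -0.06 ± 0.33. Lpar1 had 30.6, 40.8 and 32.6 CPM in Ctr, 32.7 and 54.8 CPM in Ref and 48.6 and 35.3 CPM in Alt. Adamts4 had 10.7, 20.1 and 15.6 CPM in Ctr, 19.98 and 22.5 CPM in Ref and 26.3 and 14.6 CPM in Alt. In both genes Alt replicate 1 was well above Alt replicate 2, and the groups overlapped. Cryab, Ndrg1 and Gpr37 were the remaining genes of this role, with log2 fold changes of Alt versus Ref of -0.98 ± 0.24, -0.54 ± 0.17 and -0.32 ± 0.21.

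All 6 transcription factors were higher in Ref than in Ctr (median 0.418) and lower in Alt than in Ref (median -0.631), but they differed in size and in overlap. Nkx6-2, a homeobox factor of mature oligodendrocytes, had the largest log2 fold changes of the list in both comparisons with Ref, 1.23 ± 0.34 against Ctr and -1.52 ± 0.39 for Alt versus Ref. It was a low gene with 4.62, 4.58 and 7.20 CPM in Ctr, 11.1 and 14.7 CPM in Ref and 5.85 and 3.12 CPM in Alt.

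Myrf, the regulator that starts the myelin program, had 27.7, 33.6 and 28.1 CPM in Ctr, 58.2 and 69.2 CPM in Ref and 58.6 and 29.5 CPM in Alt. Alt replicate 1 was thus at the level of Ref and Alt replicate 2 at the level of Ctr. The log2 fold change of Alt versus Ctr was 0.56 ± 0.25 with both libraries and -0.01 without Alt replicate 1. Mbp and Mag, which it activates, were lowest of the 7 libraries in Alt replicate 1.

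Sox10 had the narrowest spread of the regulators, with 31.5, 27.0 and 28.7 CPM in Ctr, 37.6 and 37.0 CPM in Ref and 25.04 and 24.1 CPM in Alt. Its log2 fold change was 0.36 ± 0.17 for Ref versus Ctr and -0.60 ± 0.19 for Alt versus Ref. Olig1 had 116, 117 and 150 CPM in Ctr, 186 and 168 CPM in Ref and 116 and 108 CPM in Alt, with 0.48 ± 0.16 and -0.66 ± 0.18 in the same comparisons. Olig2 had 12.8, 26.2 and 23.9 CPM in Ctr, 29.4 and 20.1 CPM in Ref and 20.5 and 19.8 CPM in Alt, and its groups overlapped in all 3 comparisons. The 2 Olig genes are neighbours on chromosome 16, separated by 41094 bases in the coordinates of the table, the closest pair in the list. Nkx2-2, which is on in cells that leave the precursor state, had only 2.58, 4.82 and 3.67 CPM in Ctr, 4.79 and 2.95 CPM in Ref and 1.56 and 2.45 CPM in Alt.

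The precursor and newly forming genes were split. Nkx2-2, described above, was lower in Alt at low levels. Its log2 fold changes were -0.87 ± 0.48 (Alt versus Ctr) and -0.94 ± 0.52 (Alt versus Ref). Cspg4, which encodes NG2, had 15.5, 15.8 and 23.8 CPM in Ctr, 32.9 and 27.0 CPM in Ref and 38.1 and 37.3 CPM in Alt. The groups did not overlap and Alt was the highest, with log2 fold changes of 0.71 ± 0.22 (Ref versus Ctr), 1.04 ± 0.22 (Alt versus Ctr) and 0.33 ± 0.25 (Alt versus Ref). Pdgfra had 76.8, 108 and 94.3 CPM in Ctr, 107 and 114 CPM in Ref and 141 and 110 CPM in Alt. Both Alt libraries were above the 3 Ctr libraries, but Alt replicate 2 lay only 1.35 CPM above Ctr replicate 2, and Alt overlapped Ref. The log2 fold change of Pdgfra was 0.43 for Alt versus Ctr and 0.239 without Alt replicate 1, and for Alt versus Ref it ranged from -0.0042 (Alt replicate 1 left out) to 0.362 (Alt replicate 2 left out). Of all genes tested, 16.8% lay higher in Alt than in Ctr without overlap and 18.1% lower, and of the 38 genes 2 and 8 did so.

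Gpr17, a receptor on newly forming cells, had 38.1, 44.8 and 52.7 CPM in Ctr, 56.3 and 61.2 CPM in Ref and 54.7 and 49.2 CPM in Alt. Enpp6, a choline phosphodiesterase of newly formed oligodendrocytes, had 8.14, 7.19 and 6.27 CPM in Ctr, 7.98 and 10.8 CPM in Ref and 10.2 and 6.75 CPM in Alt. Neither set Alt apart from Ctr. Bcas1, which marks early myelinating cells, had 44.1, 71.1 and 54.3 CPM in Ctr, 80.5 and 88.4 CPM in Ref and 49.8 and 42.9 CPM in Alt. Its pattern was that of the mature genes, with which its log2 CPM correlated at r = 0.955 over the 7 libraries, whereas Cspg4 had r = 0.0463 and Pdgfra r = 0.343. These correlations include the differences between groups and are given as a description.

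**Figure D3:**
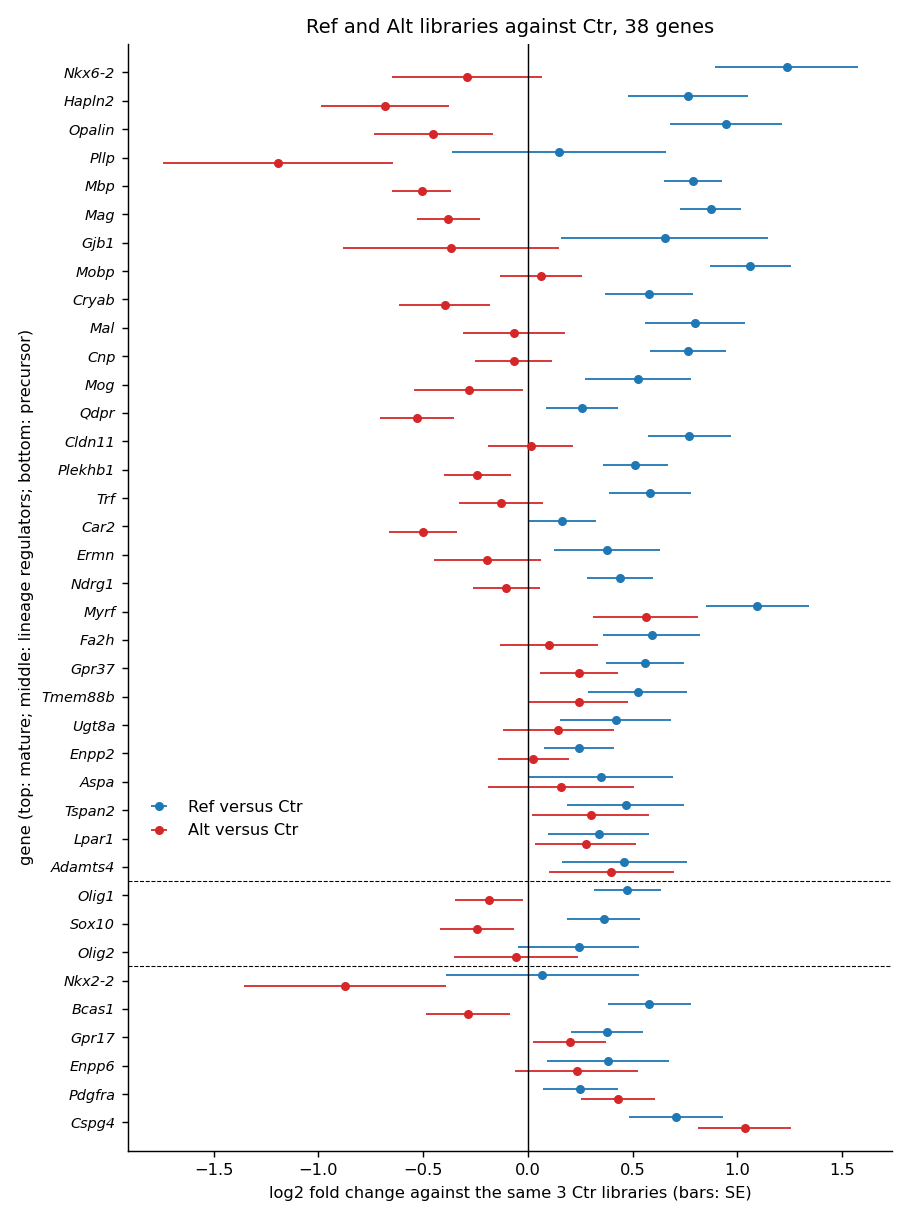
Points are the log2 fold changes of Ref versus Ctr (blue) and Alt versus Ctr (red) for each gene, with SE bars, ordered within each stage by the log2 fold change of Alt versus Ref. The blue points all lie above 0, and Pdgfra and Cspg4 at the bottom are the 2 genes whose red point lies to the right of the blue one.

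The 29 mature genes and the 6 precursor and newly forming genes could be set against each other within each library, where the scaling of the library cancels but an effect of gene length does not. With the correction for gene length, the medians for Alt versus Ctr were 0.0588 for the mature and 0.158 for the precursor genes, in place of -0.103 and 0.217. The median log2 difference from the Ctr mean of the mature genes, minus that of the precursor genes, was 0.08, 0.19 and -0.13 in the Ctr libraries, 0.10 and 0.23 in Ref and -0.30 and -0.24 in Alt. Both Alt values were below the other 5. The ratio of Mbp to Pdgfra CPM was 10.4, 7.57 and 7.81 in Ctr, 12.4 and 12.1 in Ref and 3.70 and 5.33 in Alt. The 3 groups did not overlap in this ratio. Mbp was used to choose the list, and Pdgfra is 1 of the 2 genes not lower in Alt than in Ref. The choice of these genes favours such a separation, so nothing is read from it. Bulk tissue cannot tell fewer oligodendrocytes from less of these RNAs per cell.

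Summed over the 29 mature genes, the level was 2756, 3392 and 2650 CPM in Ctr, 4311 and 4958 CPM in Ref and 2755 and 2507 CPM in Alt. Alt thus lay within or just below the range of Ctr in this sum, and Ref above it. The share of Mbp in the sum was 29.1%, 24.2% and 27.8% in Ctr, 30.9% and 27.9% in Ref and 19.0% and 23.3% in Alt. Alt replicate 2 was close to Ctr replicate 2 in this share. Since Mbp was used to choose the list, nothing is read from its share.

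Within groups the libraries differed in a way that many mature genes shared. Ctr replicate 2 was the highest Ctr library for 25 of the 29 mature genes, and Ref replicate 2 was above Ref replicate 1 for 27 of them. Alt replicate 1 was above Alt replicate 2 for 18 and below it for 11. In 15 of the 38 genes Ctr replicate 2 exceeded at least 1 Ref library. Among the 406 pairs of mature genes, 396 had a correlation above 0 over the 7 libraries, with a median r of 0.699, as a description over libraries that share these shifts.

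Mag, Sox10 and Mbp varied least inside groups, with pooled SDs of 0.0672, 0.0819 and 0.0828 (log2 CPM) against a median of 0.317 over all genes tested. The most variable were Gjb1, the gap junction protein connexin 32, with 0.769 and Pllp with 0.75. Of the 29 mature genes, 25 were lower in Alt than in Ref when Ref replicate 2 was left out and also when Alt replicate 2 was left out. Their median for Alt versus Ctr changed sign, to 0.0761 without Ctr replicate 2, to 0.0712 without Alt replicate 2 and to 0.0588 with the correction for gene length.

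A further 40 genes of myelin and mature oligodendrocytes, outside the 38, were listed with earlier results of these data known. All 40 exceeded Ctr in Ref, 15 of them called, beside 2.19% of all genes, with a median log2 fold change of 0.513. In Alt versus Ref, 34 were lower, 18 of them called, beside 8.83%, and 6 higher, with 0 called, beside 6.71%.

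Against Ctr, 5 of the 40 were called higher in Alt, beside 9.45% of all genes, and 8 lower, beside 10.3%, with a median of 0.0831. With both Alt libraries, those called lower included the tetraspanins Cd9 (-1.03 ± 0.34) and Cd82 (-0.96 ± 0.29), the deacetylase Sirt2 (-0.49 ± 0.21), Septin4 (-0.46 ± 0.15) and the junction protein Jam3 (-0.75 ± 0.25). Those called higher were Gjc3 (0.63 ± 0.25), Hhip (1.07 ± 0.37), Cntn2 (0.53 ± 0.23), Nfasc (0.49 ± 0.19) and Padi2 (0.53 ± 0.18). In Gjc3, Hhip, Cntn2 and Nfasc, Alt overlapped Ctr, and Alt replicate 1 was far above Alt replicate 2. Cntn2 had 165 and 92.7 CPM in Alt against at most 108 in Ctr, and Nfasc had 313 and 196 CPM against at most 199.9. Padi2, a deiminase that acts on myelin basic protein, had 33.4 and 30.2 CPM in Alt, above the 19.9 to 23.6 CPM of Ctr. Without Alt replicate 1, a setting chosen for these lists after seeing the data, 0 of the 40 were called higher, beside 3.68% of all genes, and 5 lower (Cd82, Klk6, Jam3, Gal3st1 and Septin4), beside 4.46%, and the median changed sign to -0.0258. With Alt replicate 2 left out, 11 were called higher and 11 lower, beside 14.3% and 18.9%. In the setting without Alt replicate 1, Cd9 (-0.463) and Sirt2 (-0.216) were not called. Neurons also express Nfasc, Cntn2 and several others of these genes. Klk6, an oligodendrocyte protease, had 0 counts in both Alt libraries and at most 2.48 CPM elsewhere, so its fitted difference has no firm size.

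Of 26 further precursor genes, 24 were tested. In Alt versus Ctr, 17 were higher and 8 were called higher (Vcan, Ptprz1, Sox6, Itpr2, Sema5a, Ednrb, Tnr and Xylt1), beside 9.45% of all genes, while 2 were called lower, Fyn and Dll3, beside 10.3%. In several of the 8 Alt replicate 1 was far above Alt replicate 2, as in Sema5a with 196 and 73.3 CPM in Alt replicates 1 and 2 against at most 68.4 in Ctr, Itpr2 with 77.5 and 39.99 CPM, and Ednrb with 137 and 91.3 CPM, which overlapped Ctr. Of the 8, Ptprz1 was the 1 gene also called higher without Alt replicate 1, when the median of the list was 0.244. Astrocytes or neurons also express several of the 8. The median log2 fold change was 0.435 for Alt versus Ctr, 0.24 for Ref versus Ctr and 0.0922 for Alt versus Ref, the last of which was -0.011 with Alt replicate 1 left out and 0.342 with Alt replicate 2 left out. The growth factors, receptors and other signals of the lineage, 32 genes, had 10 called higher and 0 lower in Alt versus Ctr, beside the same 9.45% and 10.3%, with a median of 0.17. Without Alt replicate 1 there were 3 called higher (Notch1, Mtor and Igf1r) and 0 lower, beside 3.68% and 4.46%, and without Alt replicate 2 there were 12 and 3, beside 14.3% and 18.9%. Among the 10 were Notch1 (0.97 ± 0.22), which holds precursors back from maturing, its ligand Jag1 (0.66 ± 0.23), Nrg1 (0.96 ± 0.30) and Igf1r (0.83 ± 0.17). Without Alt replicate 1 these values were 0.73, 0.431, 0.436 and 0.557. With all libraries Ref versus Ctr had 1 called higher, Notch1, beside 2.19%, and 1 lower, Igf1, beside 0.945%. The 22 genes of sphingolipid synthesis and breakdown had a median of 0.0804 for Ref versus Ctr and -0.172 for Alt versus Ref, with 5 called lower in Alt versus Ref (Cers2, Degs1, Gal3st1, Elovl1 and Psap), beside 8.83%. Without Alt replicate 1 the second median was 0.0294 and 3 were called lower, beside 4.40%. Cers2, which makes the very-long-chain ceramides of myelin, had 32.4, 31.8 and 31.0 CPM in Ctr, 44.0 and 42.5 CPM in Ref and 19.3 and 27.2 CPM in Alt, the order seen for Mbp.

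Markers of other cells moved with the myelin genes in part. Of 10 astrocyte markers 9 were higher in Ref than in Ctr, 3 of them called (Aldh1l1, Gja1 and Aldoc), beside 2.19% of all genes, with a median log2 fold change of 0.33, and 8 were lower in Alt than in Ref, 3 called (Aldoc, S100b and Fgfr3), beside 8.83%, with a median of -0.224. That median was -0.103 with Alt replicate 1 left out and -0.361 with Alt replicate 2 left out. Their summed level was 5614 to 7241 CPM in Ctr, 7643 and 9188 CPM in Ref and 11544 and 8344 CPM in Alt, most of it from Slc1a2. The medians of the microglia list were 0.161 and -0.196 in these 2 comparisons, those of the endothelial and mural list 0.222 and 0.0497, and those of the neuron list -0.0917 and -0.0566. For Alt versus Ref the endothelial and mural median changed sign to -0.0925 with Alt replicate 2 left out, and the neuron median to 0.082 with Alt replicate 1 left out. Against Ctr, 8 of the 10 endothelial and mural markers were higher in Alt, 1 of them called, beside 9.45%, with a median of 0.271, and their summed level was 560 to 689 CPM in Ctr, 663 and 807 CPM in Ref and 766 and 812 CPM in Alt. Mural cells also express Cspg4. Markers of striatal neurons, which lie near the dissected region, had a summed level of 91.9 to 112 CPM in Ctr, 146 and 93.8 CPM in Ref and 73.2 and 92.9 CPM in Alt. Their median log2 fold change was 0.266 for Ref versus Ctr, -0.723 for Alt versus Ref, with 6 of 8 lower and 2 called lower, beside 8.83%, and -0.398 for Alt versus Ctr. With Alt replicate 1 left out, the median for Alt versus Ref was -0.168 and that for Alt versus Ctr changed sign to 0.0291. The part of other cells or of the dissection in the myelin values was not tested.

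**Figure D4:**
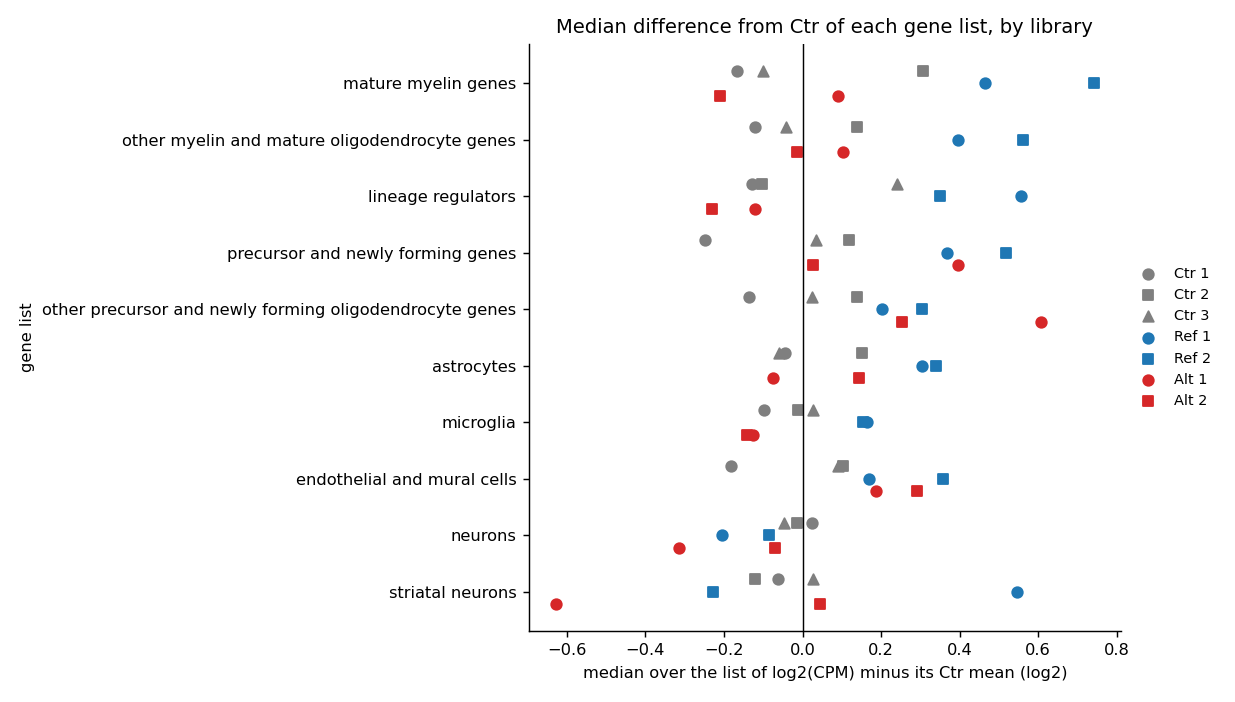
Each point is 1 library and gives the median over a gene list of the log2 CPM difference from the mean of the 3 Ctr libraries. Both Ref libraries are to the right of Ctr for the 2 myelin lists (0.465 and 0.742 for the mature genes), and for the further precursor genes both Ref (0.202 and 0.304) and both Alt libraries (0.608 and 0.254) are to the right of all Ctr libraries.

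The genes outside the list whose pattern over the 7 libraries was most like the mean profile of the 29 mature genes were Gatm (r = 0.979), the enzyme that starts creatine synthesis, 5031439G07Rik (r = 0.973), and Tmem63a (r = 0.956), an ion channel of myelin and a member of the 40 further myelin genes. Of the 20 nearest genes, Tmem63a was the 1 gene that any of the lists held. The correlations are over 7 libraries and share the differences between groups.

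Upstream sequence was available for 25 of the 38 genes, from the RefSeq promoter table of mouse build GRCm38.p6. In 21 of the 25 the bases after the start were found near the beginning of a reference transcript. The 250 bases before the start are shown for Mobp, Opalin and Hapln2, chosen after their matches and values were seen, and for Pdgfra and Cspg4, the 2 genes not lower in Alt than in Ref. Capitals mark matches, on either strand, to ACAAAG or ACAATG, hexamers of the kind that SOX factors such as Sox10 bind, and to TATAAA. The stretches lie at chr9:120149492-120149741 (plus strand), chr19:41077114-41077363 (minus), chr3:88027512-88027761 (minus), chr5:75152001-75152250 (plus) and chr9:56864854-56865103 (plus).
Mobp: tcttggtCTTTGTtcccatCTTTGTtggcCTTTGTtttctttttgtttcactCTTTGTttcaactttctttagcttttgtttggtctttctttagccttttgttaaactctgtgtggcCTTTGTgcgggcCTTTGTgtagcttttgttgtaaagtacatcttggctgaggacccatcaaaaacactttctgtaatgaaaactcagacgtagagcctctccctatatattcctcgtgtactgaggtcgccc
Opalin: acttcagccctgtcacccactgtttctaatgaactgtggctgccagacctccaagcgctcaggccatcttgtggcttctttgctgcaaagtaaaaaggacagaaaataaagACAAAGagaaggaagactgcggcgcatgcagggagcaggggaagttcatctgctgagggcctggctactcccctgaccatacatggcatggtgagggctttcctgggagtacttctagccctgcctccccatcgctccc
Hapln2: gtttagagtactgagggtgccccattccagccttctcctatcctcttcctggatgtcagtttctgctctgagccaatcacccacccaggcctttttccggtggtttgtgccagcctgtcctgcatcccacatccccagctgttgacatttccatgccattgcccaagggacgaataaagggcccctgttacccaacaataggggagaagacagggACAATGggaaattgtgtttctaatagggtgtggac
Pdgfra: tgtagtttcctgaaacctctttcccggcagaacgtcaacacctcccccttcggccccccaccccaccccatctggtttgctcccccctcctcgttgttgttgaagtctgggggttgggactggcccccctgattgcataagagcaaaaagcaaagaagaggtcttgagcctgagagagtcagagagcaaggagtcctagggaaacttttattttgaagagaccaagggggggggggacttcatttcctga
Cspg4: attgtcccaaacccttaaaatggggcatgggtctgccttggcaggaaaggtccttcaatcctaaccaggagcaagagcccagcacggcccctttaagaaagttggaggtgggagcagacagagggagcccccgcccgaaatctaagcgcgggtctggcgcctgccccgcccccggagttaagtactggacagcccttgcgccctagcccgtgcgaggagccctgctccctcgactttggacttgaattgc

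Mobp held 6 matches to ACAAAG, all read on the opposite strand as CTTTGT, of which the 4 farthest from the start lie within 51 bases. Opalin held 1 match to ACAAAG and Hapln2 1 to ACAATG. In Pdgfra and Cspg4 these letters did not occur in this window, nor did TATAAA in any of the 5. ACAAAG and ACAATG were also missing from this window in Nkx6-2, Pllp, Mal, Cldn11 and Plekhb1, so nothing is read from the contrast between the stretches shown. ACAAAG was found in 5 of the 25 genes (Cnp, Gjb1, Mag, Mobp and Opalin), which is 20%, and in 16.5% of the 32851 promoters of the table at the same length. ACAATG was found in 5 of the 25 (Enpp6, Ermn, Hapln2, Olig2 and Tmem88b) and in 10.7% of all promoters. TATAAA was found in 2 of the 25, Aspa and Olig2, and in 12.4% of all promoters. These matches describe the sequence and were not tested for binding.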

How the data were processed

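Prefrontal cortex RNA of female mice was sequenced as poly(A)-selected libraries, 3 Ctr, 2 Ref and 2 Alt, grouped by the sample titles. The authors deposited 1 table with whole-number counts per gene, with TPM and with FPKM values that they computed from the counts and from the gene length listed beside them. The submitters' processing notes name STAR and featureCounts without versions and, as genome build, hg19, a human build. The mouse build and annotation are not given in the sources used here, and coordinates other than those of promoters are as the table lists them.

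The main test was edgeR 4.0.16 (R 4.3.3) by quasi-likelihood on counts, with TMM, filterByExpr and group means over all 7 libraries. FDR is by the Benjamini-Hochberg method over 17254 genes. Calls use an unadjusted p of 0.05. The SE is the log2 fold change divided by the square root of F. Deposited TPM served for levels between genes. Log2 CPM used a prior count of 2. The members, the gene lists and the stage classes were chosen with earlier results of these data known. Values in every library are given for Mbp, the 6 most abundant mature genes by mean TPM, the 4 mature genes with the largest and the 4 with the smallest difference of Alt versus Ref, the transcription factors and the precursor and newly forming genes, and other genes were named after their values were seen. Alternatives were RLE scaling, DESeq2 1.42.0, no low-count filter, protein-coding genes only, gene-length offsets (loess span of 0.3), the replicate number as a block, TPM and FPKM (pseudocounts of 1 and 0.1), and leaving out each library, which for the lists outside the 38 was added after seeing the data and done for the Alt libraries alone. The scripts were tested on simulated data. The AAV insert was not analysed here. Results for some items are not reported here.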

Additional observations from a re-analysis of the deposited data

How the results depend on the processing

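Of 38 genes, the number called was 20 in Alt versus Ref, 20 in Ref versus Ctr and 8 in Alt versus Ctr, where 15.5%, 3.14% and 19.8% of all genes tested were called in either direction. With gene-length offsets it was 13 in Alt versus Ref (13.0% of all genes) and 2 in Alt versus Ctr (16.4%). With the replicate number as a block it was 20, 15 and 5 (9.01%, 2.49% and 12.6%). The labels do not say that a number marks a shared animal or batch, and the deviations of libraries with the same number correlated between -0.0984 and 0.0702, so the libraries were not treated as paired. Leaving out 1 library at a time gave 17 (without Ref replicate 2, 10.9% of all genes) to 25 (without Alt replicate 1, 6.76%) in Alt versus Ref, 10 (without Ref replicate 2, 1.25%) to 25 (without Ctr replicate 2, 2.73%) in Ref versus Ctr and 4 (without Alt replicate 1, 8.14%) to 11 (without Alt replicate 2, 33.2%) in Alt versus Ctr. The median log2 fold change of the mature genes in Alt versus Ref was -0.755 and moved to -0.451 with length offsets. The median of the precursor and newly forming genes in Alt versus Ctr was 0.217 and ranged from 0.0165 (without Alt replicate 1) to 0.39 (without Alt replicate 2). In Alt versus Ref it was -0.163 and changed sign to 0.0188 without Alt replicate 2. The value of Myrf in Alt versus Ctr went from 0.56 to -0.0114 without Alt replicate 1 and to 0.978 without Alt replicate 2. The causes were not tested. Of 1824 values of single genes under the alternatives, 1763 moved by less than 1 SD between replicates and 60 by more, sign changes of values that were not called included, and the 1 called value that changed sign was that of Myrf without Alt replicate 1. Where the library left out belonged to neither group compared, a value could hardly move. These counts of values therefore do not measure stability. With 2 Ref and 2 Alt libraries, the spread inside a group rests on 1 difference.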
